A study of Danio rerio with 24 samples.

Results

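RNA was compared between neomycin-treated and mock-treated zebrafish larvae in GFP+ and GFP- cells, and the question was which genes changed by a different amount in the GFP+ cells 5 h after the drug. For each gene the change in GFP+ cells (neomycin 5 h minus mock) was set against the change in GFP- cells, and the difference of these 2 changes was tested. The comparison used 12 of the 24 libraries of the series, 3 in each of 4 groups: GFP+ cells 5 h after neomycin, GFP+ cells of mock larvae, GFP- cells 5 h after neomycin and GFP- cells of mock larvae. All larvae were Tg(sqET20) at 5 dpf, so the mock groups and the GFP- cells carry the same transgene. Treated larvae had 300 uM neomycin for 30 min, and mock larvae, labelled no drug, were taken at 1 h, so there is no mock group at 5 h. About 200 larvae were pooled and dissociated for each sort, a 2-gate sort kept living cells, and RNA came from about 30000 cells. sqET20 is an enhancer trap line, so GFP+ is a gate on a reporter and not 1 cell type. By their date labels the mock and 1 h samples belong to Mar2012, and the later ones, at 3 h and 5 h, to Apr2012. Within 1 population the drug, the later time and the date cannot be told apart, whereas what the date does equally to both populations cancels in the difference and what it does to them unequally does not.

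Fish sense water flow with the neuromasts of the lateral line, small organs in the skin. In each neuromast, mechanosensory hair cells are ringed by supporting cells, and the aminoglycoside neomycin kills the hair cells. Supporting cells then divide and give rise to new hair cells, with Notch signalling setting which daughter becomes a hair cell and atoh1 acting as the transcription factor that starts hair cell fate. Roles given below are those of the mammalian proteins of the same name unless a zebrafish role is stated.

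Levels were deposited as FPKM, fragments scaled to transcript length and library size, and the number of reads behind a value is unknown. Low values put the depth of the 12 libraries between 0.865 and 1.26 times the median library. Summed FPKM ran from 1180045 to 1315400 in GFP+ cells at 5 h and from 1299957 to 1601861 in GFP+ mock, and between 17107 and 19598 genes reached 1 FPKM per library. The labels were checked on lateral line genes. The hair cell gene s100t had 1749, 1135 and 1300 FPKM in GFP+ mock, against 45.4, 21.1 and 13.5 FPKM in GFP- mock. fndc7rs2, a fibronectin type III domain gene, had 215, 241 and 246 FPKM in GFP+ mock, against 0.208, 0 and 0.131 FPKM in GFP- mock. In mock larvae 4608 of 20937 genes were higher (22%) and 10153 lower (48.5%) in GFP+ than in GFP- cells. GFP+ cells also held RNA of other tissues. The summed level of 40 epidermis and ionocyte markers was 19414 to 36301 FPKM in GFP+ mock and 2269 to 3932 FPKM in GFP- mock. That of 51 lateral line and supporting cell genes was 12351 to 13830 FPKM in GFP+ mock and 824 to 869 FPKM in GFP- mock. In such bulk samples fewer cells of a type and less RNA per cell cannot be told apart. The labels do not say whether replicates came from separate clutches, so p-values measure only the spread between these samples, which may be technical.

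By size of difference under the naming rule, genes that gained more in GFP+ cells began with a D-type cyclin (ccndx), the peptide hormone apela and the Notch ligand DLL1, and genes that lost more with mgp, neff2, fndc7rs2, pabpc1b and GSTM3. Smaller higher differences were called for 13 proteasome genes. Of 20937 genes tested, the difference of changes was called for 173 (0.826%) with limma at an adjusted p of 0.05, Benjamini-Hochberg over all genes. It was higher in GFP+ cells for 149 (0.712%) and lower for 24 (0.115%). In GFP+ cells themselves 2848 genes rose (13.6%) and 725 fell (3.46%), and in GFP- cells 52 rose (0.248%) and 57 fell (0.272%). After median-of-ratios scaling of the libraries, GFP+ cells had 1526 rises and 1386 falls, so that 52.4% of their calls were rises, against 79.7% as deposited, and GFP- cells had 52 rises and 42 falls. Of the 149 higher calls, 139 had a called rise in GFP+ cells and no call in GFP- cells, 5 rose in both, 1 rose in GFP+ and fell in GFP- cells, and 4 rested on a fall in GFP- cells. Of the 24 lower calls, 20 had a called fall in GFP+ cells and no call in GFP- cells, 3 rested on a rise in GFP- cells and 1 rose in both. In mock larvae 125 of the 149 higher calls were called lower in GFP+ than in GFP- cells, against 48.5% of all genes. For 121 of these the gap was smaller at 5 h. A higher difference shrinks such a gap unless it far exceeds it, so this count follows largely from the selection. Among the 24 lower calls 18 were called higher in GFP+ mock, against 22% of all genes. The mock libraries enter both tests, so these counts are not independent of the calls. The absolute log2 difference of the called genes had a median of 0.95, against a median standard error of 0.23 over all genes. A call demands a difference that is large against its standard error, so this gap follows from the calling. All changes are differences of log2(FPKM + 1), which understate the fold change of genes at low levels.

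The split between higher and lower calls depended on scaling. The median difference over all genes was 0.16 on the log2(FPKM + 1) scale as deposited and 0.00 after median-of-ratios scaling of the libraries, a shift of 0.16. With that scaling 22 genes (0.105%) were called, 8 higher and 14 lower, so that 36.4% of calls were higher, against 86.1% as deposited. All 22 were among the 173, and all 149 higher and 24 lower differences kept their sign. Leaving out any 1 of the 12 libraries lowered the number of calls, to 82 without GFP+ mock replicate 1 and to 4 without GFP+ mock replicate 3. The labels do not say whether same-numbered GFP+ and GFP- samples came from 1 sort. With a block for each such presumed sort 9 genes were called, 5 higher and 4 lower, with 0 proteasome genes called higher. Scaled values are therefore given beside the main genes that follow, and a scaled difference is one relative to the median gene.

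**Figure D1:**
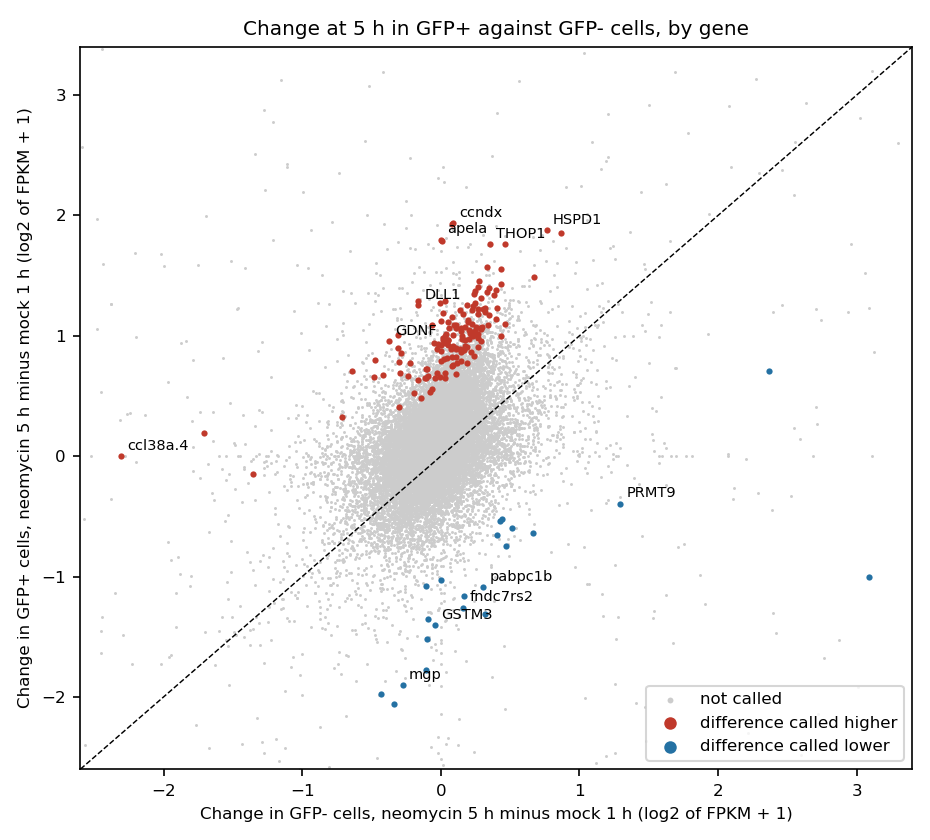
Change at 5 h of each tested gene, neomycin minus mock on the log2(FPKM + 1) scale, in GFP+ cells (vertical) and GFP- cells (horizontal). Red points are the genes whose difference was called higher in GFP+ cells, blue points those called lower, grey points those not called, and the dashed line marks equal change; genes beyond the axes are not drawn. Red points stand above the line and mostly near 0 on the horizontal axis, where 139 of 149 higher calls had a GFP+ rise and no call in GFP- cells.

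The largest higher difference by the naming rule was that of ccndx (ENSDARG00000019741), a cyclin of the D type that drives entry into the cell cycle. It had 22.3, 22.1 and 34.0 FPKM in GFP+ cells at 5 h and 4.05, 5.76 and 8.86 FPKM in GFP+ mock, against 0.512, 0.419 and 0.217 FPKM in GFP- cells at 5 h and 0.149, 0.338 and 0.414 FPKM in GFP- mock. All 3 GFP+ libraries at 5 h stood above all 3 of mock. The naming rule demands this of each gene it takes for a GFP+ change, so it adds no support. GFP- cells held little of ccndx under either condition, so its difference rests on GFP+ cells. The difference of log2 changes was 1.85 ± 0.34 (SE; limma adjusted p = 0.0414), or 1.7 after scaling (adjusted p = 0.111). It was called in 0 of the 12 fits that left out 1 library, where its difference stayed between 1.62 and 2.10.

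The apela gene (ENSDARG00000094729) encodes a secreted peptide that acts on the apelin receptor. Its level was 13.3, 15.2 and 20.3 FPKM in GFP+ cells at 5 h and 3.37, 4.73 and 3.70 FPKM in GFP+ mock, and 1.05, 0.855 and 0.922 FPKM in GFP- cells at 5 h and 1.52, 0.604 and 0.803 FPKM in GFP- mock. The GFP+ groups did not overlap, as the naming rule demands, whereas the GFP- groups did. The difference was 1.80 ± 0.28 (SE; limma adjusted p = 0.0308; 1.65 after scaling, adjusted p = 0.0604), and 3 of the 12 fits called it.

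The gene that carries the symbol DLL1 under ENSDARG00000020219, a Delta ligand of Notch receptors, had 18.5, 21.5 and 19.9 FPKM in GFP+ cells at 5 h and 5.74, 8.57 and 9.48 FPKM in GFP+ mock. In GFP- cells it had 16.6, 16.2 and 16.3 FPKM at 5 h and 16.5, 18.1 and 21.2 FPKM in mock. GFP+ cells thus held less DLL1 than GFP- cells in mock larvae and slightly more at 5 h. The difference was 1.42 ± 0.22 (SE; limma adjusted p = 0.0308; 1.23 after scaling, adjusted p = 0.0614), called in 2 of the 12 fits. The other ID with that symbol, ENSDARG00000010791, had 16.3, 17.8 and 18.9 FPKM in GFP+ cells at 5 h and 5.97, 9.96 and 11.7 FPKM in GFP+ mock, with a difference of 1.06 ± 0.30 that was not called (adjusted p = 0.127).

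Among the genes of the naming rule, the higher difference held under both scalings for GDNF and DPP3. GDNF (ENSDARG00000039959), a neurotrophic factor of the Tgf-beta superfamily, had 14.5, 16.0 and 15.9 FPKM in GFP+ cells at 5 h and 6.76, 8.51 and 7.28 FPKM in GFP+ mock, against 4.95, 5.43 and 5.52 FPKM in GFP- cells at 5 h and 5.99, 7.39 and 8.19 FPKM in GFP- mock. Of these 12 libraries the 3 of GFP+ cells at 5 h were the highest, and its difference was 1.33 ± 0.17 (limma adjusted p = 0.0202; 1.14 after scaling, adjusted p = 0.0372). DPP3 (ENSDARG00000020676), a cytosolic dipeptidyl peptidase, had 19.98, 20.3 and 23.2 FPKM in GFP+ cells at 5 h and 9.27, 7.72 and 7.55 FPKM in GFP+ mock, while GFP- cells had 25.6, 28.6 and 28.0 FPKM at 5 h and 26.9, 25.4 and 30.3 FPKM in mock. GFP- cells showed no called change, and the DPP3 difference was 1.28 ± 0.15 (adjusted p = 0.0137; 1.09 after scaling, adjusted p = 0.0417). GDNF was called in 6 of the 12 fits that left out a library, and DPP3 in 11.

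The other higher genes of the rule were THOP1, nuggc.3, APEX1, ABCF1 and SDK1, with differences of 1.41, 1.28, 1.26, 1.24 and 1.21 and limma adjusted p between 0.0262 and 0.0492. None of these 5 was called after scaling, where adjusted p ran from 0.0536 to 0.174. Of the 12 fits that left out a library, 4 called THOP1, 4 APEX1, 2 ABCF1, 1 SDK1 and 0 nuggc.3. THOP1, a cytosolic oligopeptidase, averaged 37.5 ± 5.72 FPKM in GFP+ cells at 5 h and 10.3 ± 1.32 FPKM in GFP+ mock (SD, n = 3 each), against 30.9 ± 1.60 FPKM in GFP- cells at 5 h and 24.1 ± 3.96 FPKM in GFP- mock. APEX1, the main endonuclease of base excision repair, averaged 39.0 ± 3.26 FPKM in GFP+ cells at 5 h and 15.3 ± 1.205 FPKM in GFP+ mock, with 63.1 ± 2.84 FPKM in GFP- cells at 5 h and 62.4 ± 13.1 FPKM in GFP- mock. ABCF1, an ATP-binding protein that assists translation initiation, averaged 58.5 ± 12.8 FPKM in GFP+ cells at 5 h and 18.7 ± 0.788 FPKM in GFP+ mock. In GFP- cells ABCF1 averaged 59.8 ± 4.09 FPKM at 5 h and 47.5 ± 5.89 FPKM in mock. In mock larvae the mean of each of these 3 genes was lower in GFP+ than in GFP- cells, and at 5 h the GFP+ means of THOP1 and ABCF1 lay near the GFP- means.

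The transcription factor gene SOX4 (ENSDARG00000004588) and jac4 (ENSDARG00000092352) were also called higher under both scalings, and were chosen after their values were seen. SOX4, known for roles in progenitor cells, had 56.7, 63.5 and 62.1 FPKM in GFP+ cells at 5 h and 26.7, 29.6 and 27.5 FPKM in GFP+ mock, against 191, 191 and 209.8 FPKM in GFP- cells at 5 h and 188, 197 and 237 FPKM in GFP- mock. The GFP+ groups were well apart, and the SOX4 difference was 1.16 ± 0.14 (limma adjusted p = 0.0137; 0.95 after scaling, adjusted p = 0.0295). At 1 h after neomycin the SOX4 difference was already 1.54, and at 3 h it was 0.85. The jac4 gene had 4.42, 4.8 and 4.27 FPKM in GFP+ cells at 5 h and 0.540, 0.272 and 0.533 FPKM in GFP+ mock, and at most 0.124 FPKM in the 6 GFP- libraries compared. With so little in GFP- cells, its difference says little beyond its GFP+ change of 1.93. Its difference was 1.85 ± 0.16 (adjusted p = 0.00270; 1.82 after scaling, adjusted p = 0.00228).

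**Figure D2:**
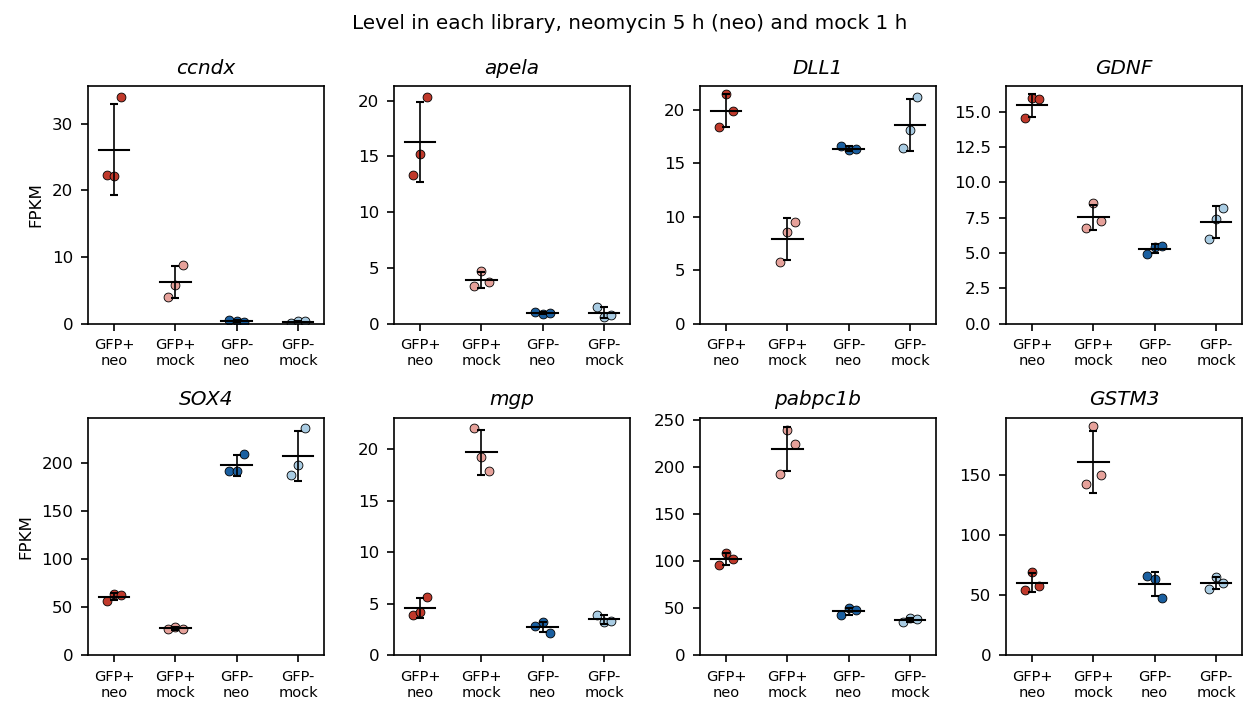
FPKM of 8 genes in each library (points), with the mean and SD of the 3 libraries of a group (bars), for GFP+ cells at 5 h and in mock and GFP- cells at 5 h and in mock. ccndx, apela, DLL1, GDNF and SOX4 stand higher in GFP+ cells at 5 h than in GFP+ mock, and mgp, pabpc1b and GSTM3 stand lower; no GFP- change of these 8 genes was called.

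The genes with a lower difference had mostly lost RNA in GFP+ cells. The mgp gene (ENSDARG00000086189), which encodes matrix Gla protein, an inhibitor of calcification, had 3.91, 4.15 and 5.66 FPKM in GFP+ cells at 5 h and 22.1, 19.2 and 17.9 FPKM in GFP+ mock, against 2.79, 3.16 and 2.17 FPKM in GFP- cells at 5 h and 3.94, 3.17 and 3.30 FPKM in GFP- mock. Every GFP+ library at 5 h stood below every mock library, as the naming rule demands. The mgp difference was -1.63 ± 0.21 (limma adjusted p = 0.0214), or -1.83 after scaling (adjusted p = 0.0200). The pabpc1b gene (ENSDARG00000021140), for a cytoplasmic poly(A)-binding protein, had 95.5, 109 and 102 FPKM in GFP+ cells at 5 h and 193, 239 and 225 FPKM in GFP+ mock, while GFP- cells had 42.3, 49.5 and 47.8 FPKM at 5 h and 35.0, 39.1 and 37.9 FPKM in mock. Its difference of -1.40 ± 0.14 (adjusted p = 0.00525; -1.61 after scaling, adjusted p = 0.00201) was called in all 12 fits that left out a library. GSTM3 (ENSDARG00000042533), a glutathione S-transferase, had 54.3, 69.6 and 57.4 FPKM in GFP+ cells at 5 h and 143, 191 and 150.4 FPKM in GFP+ mock, with 66.0, 63.5 and 48.0 FPKM in GFP- cells at 5 h and 55.6, 65.5 and 60.2 FPKM in GFP- mock. Leaving out a library left the call of GSTM3 in 2 and that of mgp in 5 of 12 fits. The GSTM3 level in GFP+ cells at 5 h was thus close to that of both GFP- groups, and the difference was -1.36 ± 0.22 (adjusted p = 0.0308; -1.57 after scaling, adjusted p = 0.0295).

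fndc7rs2, of the lateral line list, had 76.0, 129.6 and 92.7 FPKM in GFP+ cells at 5 h, below all 3 mock values given above, and at most 0.377 FPKM in the 6 GFP- libraries compared. With so little in GFP- cells, its difference says little beyond its GFP+ change of -1.26. Its difference was -1.42 ± 0.24 (limma adjusted p = 0.0348; -1.59 after scaling, adjusted p = 0.0375), and it was called in 1 of the 12 fits that left out a library. The neuropeptide gene adcyap1b, for PACAP, averaged 3.67 ± 0.215 FPKM in GFP+ cells at 5 h and 8.90 ± 0.647 FPKM in GFP+ mock (SD, n = 3 each), against 40.5 ± 1.73 FPKM in GFP- cells at 5 h and 44.0 ± 7.11 FPKM in GFP- mock. Its difference was -0.98 ± 0.16 (adjusted p = 0.0348; -1.17 after scaling, adjusted p = 0.0270), called in 2 of the 12 fits. The rest of the lower genes of the rule were neff2, trim110, gprin3b, the lambda interferon receptor gene ifnlr1 and the prostaglandin E2 receptor gene PTGER4, with differences of -1.63, -1.31, -1.12, -1.06 and -0.96. Of these 5, trim110 and PTGER4 lost the call after scaling (adjusted p = 0.0652 for trim110 and 0.0652 for PTGER4). The fits that left out a library called gprin3b 4 times and neff2 2 times of 12, and trim110, ifnlr1 and PTGER4 in 0 of 12. Part of each of these differences was a higher level in GFP- cells at 5 h, a change that was not called. The changes in GFP+ and GFP- cells were -0.60 and 0.52 for gprin3b, -0.65 and 0.40 for ifnlr1 and -1.31 and 0.32 for neff2. In GFP- cells trim110 had 4.45, 7.23 and 5.18 FPKM at 5 h and 3.41, 3.16 and 2.77 FPKM in mock. PTGER4 had 1.81, 1.74 and 1.44 FPKM there at 5 h and 1.00, 1.03 and 0.844 FPKM in mock.

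For 3 named genes a change was called in GFP- cells and none in GFP+ cells. The chaperone gene hsc70 (ENSDARG00000012381) had 10.8, 26.6 and 16.1 FPKM in GFP- cells at 5 h and 1.40, 1.22 and 0.679 FPKM in GFP- mock, a called rise, while GFP+ cells had 1.57, 2.15 and 1.46 FPKM at 5 h and 2.50, 7.50 and 4.39 FPKM in mock. Its difference was -4.10 ± 0.49 (limma adjusted p = 0.0137; -4.20 after scaling, adjusted p = 0.0114), called in 11 of the 12 fits that left out a library. After scaling the fall of hsc70 in GFP+ cells was called as well (-1.15, adjusted p = 0.0476). In GFP- cells treated with neomycin hsc70 had 0.833, 1.36 and 0.838 FPKM at 1 h and 21.8, 19.6 and 17.5 FPKM at 3 h. Its rise was thus present at 3 h and falls between the Mar2012 and Apr2012 samples, so time and date cannot be told apart. PRMT9 (ENSDARG00000036755), an arginine methyltransferase, had 18.4, 16.6 and 21.5 FPKM in GFP- cells at 5 h and 7.44, 8.196 and 5.67 FPKM in GFP- mock, against 5.91, 4.91 and 7.31 FPKM in GFP+ cells at 5 h and 8.14, 7.35 and 9.07 FPKM in GFP+ mock, a difference of -1.69 ± 0.23 (adjusted p = 0.0214; -1.87 after scaling, adjusted p = 0.0270), called in 6 of 12. The chemokine gene ccl38a.4 (ENSDARG00000041917) was listed at 0 in all 6 GFP+ libraries. It had 1.24, 3.93 and 2.26 FPKM in GFP- cells at 5 h and 17.4, 17.8 and 11.5 FPKM in GFP- mock, so its called difference of 2.31 (limma adjusted p = 0.0308; 3 of the 12 fits) says nothing of GFP+ cells, and it was not called after scaling (2.23, adjusted p = 0.0536). A contrasting pattern was that of skor2 (ENSDARG00000063614), a transcriptional corepressor chosen after its values were seen, which had 1.23, 1.33 and 1.07 FPKM in GFP+ cells at 5 h and 0.793, 0.783 and 0.714 FPKM in GFP+ mock, against 24.4, 24.4 and 26.3 FPKM in GFP- cells at 5 h and 37.4, 45.2 and 42.7 FPKM in GFP- mock. skor2 was the 1 gene that rose in GFP+ and fell in GFP- cells by the tests (difference 1.04 ± 0.14, adjusted p = 0.0214; 0.93 after scaling, adjusted p = 0.0399). After scaling its rise in GFP+ cells was not called (0.25, adjusted p = 0.113). Its GFP+ level was low throughout. By the markers described below, taken as absent from GFP+ cells, GFP- RNA was put at 2.85% to 5.92% of these GFP+ libraries. The part of such RNA in the GFP+ level of skor2 was not tested. Of the 173 calls, 5 were small-RNA loci, which are short, in libraries of polyadenylated RNA. Of these, SNORD54 and MIR181B1, named after their values were seen, were listed at 0 in all 3 libraries of GFP+ mock, so no fold is given.

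The proteasome was the listed gene group with the largest share of called members. The 26S proteasome degrades ubiquitin-tagged proteins: a 20S core of alpha and beta rings holds the cutting sites, and a 19S cap with a ring of ATPases unfolds substrates and feeds them in. Of 41 proteasome genes tested, 13 had a higher difference and 0 a lower one (31.7%, against 0.712% of all genes), and 28 did not pass. In GFP+ cells 32 of the 41 rose and 0 fell, against 13.6% of all genes that rose, and in GFP- cells 0 of 41 rose or fell. The median log2 change of the 41 was 0.72 in GFP+ cells and 0.02 in GFP- cells, and the median difference was 0.72, against 0.16 over all genes. At an unadjusted p under 0.05 the difference was higher for 31 of 41 and lower for 0. Over all 20937 genes it was higher for 3085 and lower for 443 at that limit.

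The median proteasome gene had 61.0, 64.0 and 67.9 FPKM in the GFP+ libraries at 5 h, against 41.5, 33.7 and 35.1 FPKM in GFP+ mock. In GFP- cells it had 66.8, 62.7 and 63.6 FPKM at 5 h, against 58.6, 58.7 and 68.2 FPKM in mock. GFP+ mock libraries were thus low and the other 9 libraries shared 1 range. After median-of-ratios scaling 0 of 41 were called by limma, and the median difference was 0.51, against 0.00 over all genes. With that scaling 24 of 41 rose in GFP+ cells, against 1526 of all 20937 genes. Leaving out 1 library gave 9 called members without GFP+ mock replicate 1, 3 without GFP+ replicate 1 at 5 h and 0 without any of the other 10 libraries. The median difference stayed between 0.60 and 0.77 in these 12 fits. With a block for each presumed sort 0 of 41 were called higher.

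The calls were unevenly spread over the parts of the complex. All 7 genes for ATPases of the 19S base were called, with differences of 0.72 to 0.87. PSMC1 and psmc1b were counted as separate genes. PSMC4 had 165, 159.7 and 181 FPKM in GFP+ cells at 5 h and 104, 87.4 and 75.4 FPKM in GFP+ mock, against 201, 188 and 206 FPKM in GFP- cells at 5 h and 188, 188 and 195 FPKM in GFP- mock. PSMC3 had 61.0, 64.9 and 72.8 FPKM in GFP+ cells at 5 h and 34.0, 29.7 and 30.3 FPKM in GFP+ mock, against 80.0, 74.0 and 73.2 FPKM in GFP- cells at 5 h and 58.6, 60.8 and 66.4 FPKM in GFP- mock. For both ATPases the GFP+ groups did not overlap, and the share of all genes with such groups was not counted. Of the 13 non-ATPase genes listed under the cap 5 were called (median difference 0.73), and 12 rose in GFP+ cells. The scaffold PSMD1 had the largest difference of the cap subunits, with 62.5, 68.2 and 67.9 FPKM in GFP+ cells at 5 h and 25.7, 25.02 and 21.2 FPKM in GFP+ mock, and 62.1, 61.0 and 64.8 FPKM in GFP- cells at 5 h and 43.5, 41.1 and 54.7 FPKM in GFP- mock. Its difference was 1.00 ± 0.16 (limma adjusted p = 0.0309; 0.80 after scaling, adjusted p = 0.111). PSMD9, an assembly chaperone of the base, was not called, at 19.6 ± 1.90 FPKM in GFP+ cells at 5 h and 20.3 ± 2.08 FPKM in GFP+ mock.

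In the 20S core 1 of 7 beta genes and 0 of 7 alpha genes were called, with median differences of 0.72 and 0.56. PSMA2 and psma2a were counted as separate genes. The called beta subunit was PSMB5, which carries the chymotrypsin-like site. It averaged 76.8 ± 4.15 FPKM in GFP+ cells at 5 h and 40.4 ± 2.03 FPKM in GFP+ mock (SD, n = 3 each), against 80.9 ± 4.38 FPKM in GFP- cells at 5 h and 70.9 ± 1.53 FPKM in GFP- mock (difference 0.72 ± 0.11, limma adjusted p = 0.0308). Of the alpha genes 5 rose in GFP+ cells, and of the beta genes 6. The 3 immunoproteasome subunits, which replace standard beta subunits under interferon, gave no call: PSMB8 had 1.83, 1.25 and 1.097 FPKM in GFP+ cells at 5 h and 4.404, 1.26 and 2.19 FPKM in GFP+ mock. Of 4 activator genes, PSME3 and PSME4 rose in GFP+ cells and 0 were called in the difference. PSME3, the nuclear activator, averaged 24.5 ± 5.24 FPKM in GFP+ cells at 5 h and 11.7 ± 0.526 FPKM in GFP+ mock.

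**Figure D3:**
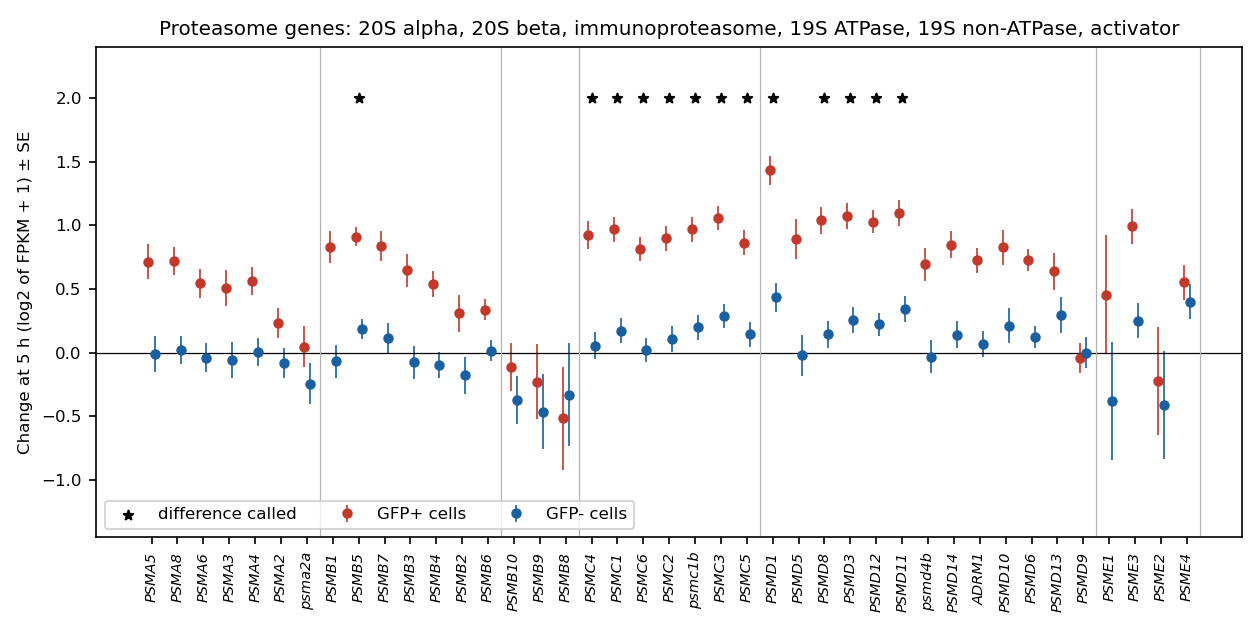
Change at 5 h (neomycin minus mock, log2 of FPKM + 1, with SE) of 41 proteasome genes in GFP+ cells (red) and GFP- cells (blue), ordered by part of the complex; stars mark the 13 genes whose difference was called. The 7 ATPase genes of the 19S cap all carry a star, while no GFP- change was called.

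Beside the proteasome, 3 lists were added once values were known. Over all genes 13.6% rose in GFP+ cells, or 1526 of 20937 after scaling, and 0.712% were called higher in the difference. Of 16 ubiquitin pathway genes that work with the proteasome, 4 were called higher, namely uba1, VCP, USP14 and USP5, and 10 rose in GFP+ cells. VCP, the segregase that pulls ubiquitin-tagged proteins out of complexes, had 447, 505 and 512 FPKM in GFP+ cells at 5 h and 207, 198 and 233 FPKM in GFP+ mock, against 324, 369.5 and 333 FPKM in GFP- cells at 5 h and 270.0, 249 and 306 FPKM in GFP- mock. The VCP difference was 0.88 ± 0.15 (limma adjusted p = 0.0348). Of 17 cytosolic tRNA synthetases, which load amino acids for translation, 16 rose in GFP+ cells, 0 changed by the test in GFP- cells, and 4 were called higher (TARS1, CARS1, EPRS1 and IARS1; median difference of the list 0.78). TARS1 had 38.7, 37.3 and 42.8 FPKM in GFP+ cells at 5 h and 17.6, 17.5 and 14.2 FPKM in GFP+ mock, against 36.2, 35.6 and 37.2 FPKM in GFP- cells at 5 h and 29.6, 28.7 and 31.9 FPKM in GFP- mock. All 7 tested genes of the CCT chaperonin, which folds actin and tubulin, rose in GFP+ cells, or 4 after scaling, and CCT3 was called in the difference (0.74). None of these genes was called after scaling, where the list medians were 0.16, 0.59 and 0.23.

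Many members of other cell growth lists rose in GFP+ cells, with few or no calls in the difference. Over all 20937 genes 2848 rose and 725 fell in GFP+ cells, or 1526 and 1386 after scaling. At an unadjusted p under 0.05 the difference was higher for 3085 of all genes and lower for 443. Of 55 ribosome biogenesis genes, 37 rose and 1 fell in GFP+ cells, or 20 and 2 after scaling, and limma called 0 in the difference (27 higher and 0 lower at an unadjusted p under 0.05; median 0.46, or 0.27 after scaling). GAR1, of the box H/ACA snoRNP that modifies ribosomal RNA, had 39.5, 40.1 and 51.4 FPKM in GFP+ cells at 5 h and 20.2, 24.1 and 25 FPKM in GFP+ mock, against 52.7, 43.1 and 42.2 FPKM in GFP- cells at 5 h and 41.0, 47.3 and 49.7 FPKM in GFP- mock (difference 0.89 ± 0.19, adjusted p = 0.0712). Of 68 S phase and mitosis genes, 32 rose and 0 fell in GFP+ cells, or 17 and 0 after scaling, with 0 calls in the difference (21 higher and 0 lower unadjusted; median 0.41, or 0.22 after scaling). The replication licensing factor CDT1 had 4.35, 3.60 and 4.36 FPKM in GFP+ cells at 5 h and 2.38, 2.11 and 2.02 FPKM in GFP+ mock, with 8.82, 8.84 and 10.1 FPKM in GFP- cells at 5 h and 9.24, 8.98 and 9.79 FPKM in GFP- mock. Its difference of 0.70 ± 0.15 missed the threshold (adjusted p = 0.0589). PCNA, the sliding clamp of DNA polymerase, averaged 164 ± 17.9 FPKM in GFP+ cells at 5 h and 101 ± 21.99 FPKM in GFP+ mock, a called rise, and its difference was 0.53 ± 0.23 (adjusted p = 0.284).

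Of 45 heat shock and unfolded protein genes, 22 rose and 0 fell in GFP+ cells, or 18 and 0 after scaling, and 3 rose in GFP- cells. In the difference 2 were called higher (median 0.26), and 0 after scaling (median 0.06, against 0.00 over all genes). The median change was 0.45 in GFP+ and 0.24 in GFP- cells, so the list also moved in GFP- cells. Over all genes 13.6% rose and 3.46% fell in GFP+ cells, or 1526 and 1386 of 20937 after scaling. In GFP- cells 0.248% of all genes rose, and 0.712% were called higher in the difference. The mitochondrial chaperonin gene HSPD1 had 71.2, 62.9 and 89.8 FPKM in GFP+ cells at 5 h and 18.2, 23.0 and 17.4 FPKM in GFP+ mock, against 77.3, 70.7 and 70.6 FPKM in GFP- cells at 5 h and 44.4, 38.6 and 44.7 FPKM in GFP- mock. HSPD1 rose in both populations by the tests and by more in GFP+ cells (difference 1.11 ± 0.20, limma adjusted p = 0.0385; 0.92 after scaling, adjusted p = 0.142). CANX, a lectin chaperone of the endoplasmic reticulum, also rose in both, with a difference of 0.63 ± 0.11 (adjusted p = 0.0396). Of 21 G1 cyclins and cell cycle inhibitors 1 was called, RB1, which holds cells before S phase. It averaged 12.7 ± 1.38 FPKM in GFP+ cells at 5 h and 5.73 ± 0.525 FPKM in GFP+ mock, and its adjusted p of 0.04999 lay just under the threshold. Of 48 immediate early genes 1 was called, the growth regulator MYCN (difference 1.15 ± 0.19, adjusted p = 0.0348), of 45 inflammation genes LTA4H, which makes leukotriene B4 (1.14 ± 0.18, adjusted p = 0.0308), and of 29 sterol and fatty acid genes ACSS2, which makes acetyl-CoA (0.61 ± 0.10, adjusted p = 0.0308). None of HSPD1, CANX, RB1, MYCN, LTA4H and ACSS2 was called after scaling. Of the 12 fits that left out a library, 0 called HSPD1 or RB1. CANX, MYCN and ACSS2 were called in 1 fit each, and LTA4H in 2. LTA4H had 6.48, 5.91 and 4.86 FPKM in GFP+ cells at 5 h and 3.42, 3.16 and 3.17 FPKM in GFP+ mock. In GFP- cells it had 58.2, 47.5 and 49.2 FPKM at 5 h and 85.1, 65.6 and 67.6 FPKM in mock, a fall that was not called. Part of its difference thus rests on GFP- cells, and the part of GFP- RNA in its low GFP+ level was not tested.

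The 62 ribosomal protein genes stood on the other side of the all-gene median. Limma called 0 in the difference (0 higher and 0 lower at an unadjusted p under 0.05), 6 fell and 0 rose in GFP+ cells, or 32 and 0 after scaling, and the median difference was -0.20, with 0 of 62 above the median of all genes. After scaling the median difference was -0.41. Over all genes 3.46% fell and 13.6% rose in GFP+ cells, or 1386 and 1526 of 20937 after scaling. The 51 glycolysis and hypoxia genes, 51 respiratory chain genes, 45 p53 and apoptosis genes and 34 oxidative stress genes gave 0 calls in the difference. Their median differences were 0.09, 0.09, 0.16 and 0.23, within 0.1 of the all-gene median. At an unadjusted p under 0.05 these lists had 1, 4, 8 and 6 higher members, and of all 20937 genes 3085 were higher and 443 lower.

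Of 44 hair cell genes a few fell in GFP+ cells, and none was called in the difference against GFP- cells. The summed level of 44 hair cell genes was 2627 to 3567 FPKM in GFP+ cells at 5 h and 4395 to 5912 FPKM in GFP+ mock, against 599 to 614 FPKM in GFP- cells at 5 h and 747 to 885 FPKM in GFP- mock. In neither population did the groups overlap. This sum is carried by the most abundant genes, s100t and pvalb9 among them, and the median change over the 44 genes was -0.01 in GFP+ cells. By the tests 6 hair cell genes fell and 3 rose in GFP+ cells, or 8 and 2 after scaling, and limma called 0 of 44 in the difference (5 higher and 2 lower at an unadjusted p under 0.05; median 0.10, or -0.09 after scaling). Over all 20937 genes 725 fell and 2848 rose in GFP+ cells, or 1386 and 1526 after scaling. Unadjusted, 3085 differences of all genes were higher and 443 lower. The calcium-binding gene s100t fell in GFP+ cells, with 499, 595 and 538 FPKM at 5 h, below the mock values above. In GFP- cells s100t had 9.35, 5.73 and 6.98 FPKM at 5 h, also below each mock value, and the difference was 0.24 ± 0.49 (adjusted p = 0.837). The parvalbumin gene pvalb9 had 729.7, 758 and 556 FPKM in GFP+ cells at 5 h and 1161, 905 and 1131 FPKM in GFP+ mock, a called fall, with a difference of -0.36 ± 0.21 (adjusted p = 0.418). POU4F3, a transcription factor of differentiated hair cells, had 10.5, 10.6 and 6.16 FPKM in GFP+ cells at 5 h and 8.11, 10.6 and 13.4 FPKM in GFP+ mock, and the groups overlapped.

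ATOH1 (ENSDARG00000055294) had the smallest p of the hair cell list, and it was higher in GFP+ cells at 5 h. Its level was 45.7, 51.3 and 58.4 FPKM in GFP+ cells at 5 h and 28.1, 28.5 and 31.3 FPKM in GFP+ mock, and 3.12, 1.97 and 2.80 FPKM in GFP- cells at 5 h and 3.45, 2.63 and 3.56 FPKM in GFP- mock. The rise in GFP+ cells was called (0.80 ± 0.15, limma adjusted p = 0.00470), and the difference of 1.02 ± 0.21 missed the threshold (adjusted p = 0.0538; 0.82 after scaling, adjusted p = 0.174). ISL1, a LIM homeobox gene, had 35.3, 40.3 and 42.6 FPKM in GFP+ cells at 5 h and 21.2, 27.5 and 30.1 FPKM in GFP+ mock, a called rise in GFP+ cells with a difference of 0.83 ± 0.20 (adjusted p = 0.0843). CLRN2 and TEKT3, next in the list by p, went the other way. CLRN2 had 6.11, 7.21 and 4.37 FPKM in GFP+ cells at 5 h and 14.5, 12.1 and 17.9 FPKM in GFP+ mock. TEKT3 had 2.98, 5.29 and 3.19 FPKM at 5 h and 8.98, 7.36 and 10.6 FPKM in mock. Neither difference was called. Leaving out a library gave -1.12 to -0.79 for CLRN2 and -1.11 to -0.78 for TEKT3.

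Of 51 lateral line and supporting cell genes, 9 fell and 5 rose in GFP+ cells, or 13 and 2 after scaling, and 1, fndc7rs2, was called lower in the difference (median 0.05, or -0.15 after scaling). At an unadjusted p under 0.05 by limma 5 were higher and 8 lower, against 3085 and 443 of all 20937 genes. The list member negaly6 had 204, 273 and 328 FPKM in GFP+ cells at 5 h and 582, 639 and 489 FPKM in GFP+ mock. Its difference was not called, and lay between -1.21 and -0.85 in the 12 fits that left out a library. Their summed level was 7669 to 9602 FPKM in GFP+ cells at 5 h, below the 12351 to 13830 FPKM of GFP+ mock, and 742 to 824 FPKM in GFP- cells at 5 h. Over all genes 3.46% fell and 13.6% rose in GFP+ cells, or 1386 and 1526 of 20937 after scaling. TSPAN1, a tetraspanin gene high in GFP+ cells, had 87.5, 121 and 119 FPKM in GFP+ cells at 5 h and 168, 188 and 159 FPKM in GFP+ mock, a called fall with a difference of -0.51 ± 0.19 (limma adjusted p = 0.218). EYA4, a transcriptional coactivator of the inner ear, had 130.2, 143 and 154 FPKM in GFP+ cells at 5 h and 84.9, 107 and 104 FPKM in GFP+ mock, a called rise with a difference of 0.49 ± 0.16 (adjusted p = 0.160). The progenitor factor SOX2 averaged 121 ± 16.9 FPKM in GFP+ cells at 5 h and 99.7 ± 13.7 FPKM in GFP+ mock, and was not called in either test.

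In the signalling pathways limma called 0 members in the difference for Notch (42 tested), Fgf (28), Wnt/beta-catenin (50), Jak/Stat3 (29), Bmp and Tgf-beta (43), chemokines (46) and retinoic acid, steroid and circadian genes (50). Their medians were 0.21, 0.01, 0.05, 0.19, 0.01, 0.03 and 0.06, against 0.16 over all genes. At an unadjusted p under 0.05 these lists held 13, 0, 8, 2, 3, 7 and 3 higher members in that order, and 0, 2, 2, 0, 1, 1 and 0 lower ones. Of all 20937 genes, 3085 were higher and 443 lower at that limit. The called DLL1 stands outside the Notch count, because another ID stood for that symbol in the list. Inside the count is DLD, a symbol that is also that of dihydrolipoamide dehydrogenase. Of the 42 Notch genes 6 rose and 1 fell in GFP+ cells, or 3 and 2 after scaling. Over all genes 13.6% rose and 3.46% fell, or 1526 and 1386 of 20937 after scaling. The Delta ligand gene dlb had 42.3, 36.0 and 37.6 FPKM in GFP+ cells at 5 h and 11.6, 18.9 and 23.6 FPKM in GFP+ mock, against 46.2, 45.3 and 48.7 FPKM in GFP- cells at 5 h and 43.0, 50.0 and 60.6 FPKM in GFP- mock. The GFP+ groups of dlb did not overlap, and its difference was 1.22 ± 0.29 (adjusted p = 0.0876). NOTCH3 averaged 69.5 ± 5.63 FPKM in GFP+ cells at 5 h and 58.7 ± 6.78 FPKM in GFP+ mock, and the Notch target her4.1 averaged 10.6 ± 2.202 FPKM in GFP+ cells at 5 h and 12.8 ± 1.03 FPKM in GFP+ mock, neither of them called.

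Of the 28 Fgf pathway genes 4 fell and 0 rose in GFP+ cells, or 8 and 0 after scaling. Over all genes 3.46% fell and 13.6% rose, or 1386 and 1526 of 20937 after scaling. The ligand FGF8 had 10.3, 10.7 and 12.6 FPKM in GFP+ cells at 5 h and 16.6, 14.9 and 15.5 FPKM in GFP+ mock, a called fall with a difference of -0.37 ± 0.17 (limma adjusted p = 0.316). The Fgf target ETV4 averaged 109 ± 1.95 FPKM in GFP+ cells at 5 h and 118 ± 23.5 FPKM in GFP+ mock, with no call. The ligand wnt2 had 15.2, 22.9 and 21.1 FPKM in GFP+ cells at 5 h and 30.5, 39.1 and 35.2 FPKM in GFP+ mock, against at most 1.87 FPKM in the 6 GFP- libraries compared. It fell in GFP+ cells, and its difference of -0.97 ± 0.31 was not called (adjusted p = 0.163). The Wnt target LEF1 and the inhibitor dkk2 had differences of 0.02 and 0.01. STAT3 averaged 70.24 ± 18.5 FPKM in GFP+ cells at 5 h and 50.2 ± 11.2 FPKM in GFP+ mock, and SOCS3, its feedback inhibitor, 26.0 ± 18.4 FPKM at 5 h and 25.9 ± 12.4 FPKM in mock, with overlapping groups.

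Markers of other cell types gave 0 calls in the difference for each of 8 lists, with 5 or fewer members at an unadjusted p under 0.05 in either direction. Of all 20937 genes, 3085 were higher and 443 lower at that limit. Of 32 blood and leukocyte markers, of which 1 was at 0 in GFP+ mock, 9 rose in GFP+ cells, or 5 after scaling, and 4 in GFP- cells, and their summed level was 572 to 1057 FPKM in GFP+ cells at 5 h and 326 to 527 FPKM in GFP+ mock. In GFP- cells these markers summed to 30368 to 45423 FPKM at 5 h and 22717 to 26727 FPKM in mock. Over all genes 13.6% rose in GFP+ cells, or 1526 of 20937 after scaling, and 0.248% rose in GFP- cells. The 29 neuron markers summed to 98.5 to 158 FPKM in GFP+ cells at 5 h and 80.1 to 117 FPKM in GFP+ mock, against 1370 to 1682 FPKM in GFP- cells at 5 h and 1274 to 1889 FPKM in GFP- mock. From 79 blood, neuron and retina markers, the share of GFP- RNA in GFP+ libraries was put at 5.92%, 4.35% and 2.91% at 5 h and at 2.85%, 3.26% and 3.53% in mock. The estimate takes these markers as absent from GFP+ cells, which was not tested. Of these 6 libraries the share was highest in GFP+ replicates 1 and 2 at 5 h. It was 4.58%, 2.15% and 2.74% in GFP+ cells at 1 h and 6.33%, 4.89% and 4.32% at 3 h. With that share of the GFP- level subtracted from each GFP+ library, 203 genes were called higher and 47 lower, among them 16 proteasome genes, all higher. mgp is known in cartilage and vessel wall. The 46 vessel, cartilage and fibroblast markers, which do not include it, summed to 10631 to 13722 FPKM in GFP+ cells at 5 h and 9954 to 18135 FPKM in GFP+ mock, with a median difference of -0.22. Their part in the mgp result was not tested. The 19 skeletal muscle markers had a median difference of -0.22, the 22 retina markers -0.15, the 40 epidermis markers 0.16, the 24 pigment and glia markers 0.21 and the 32 gut, liver, pancreas and kidney markers 0.31.

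**Figure D4:**
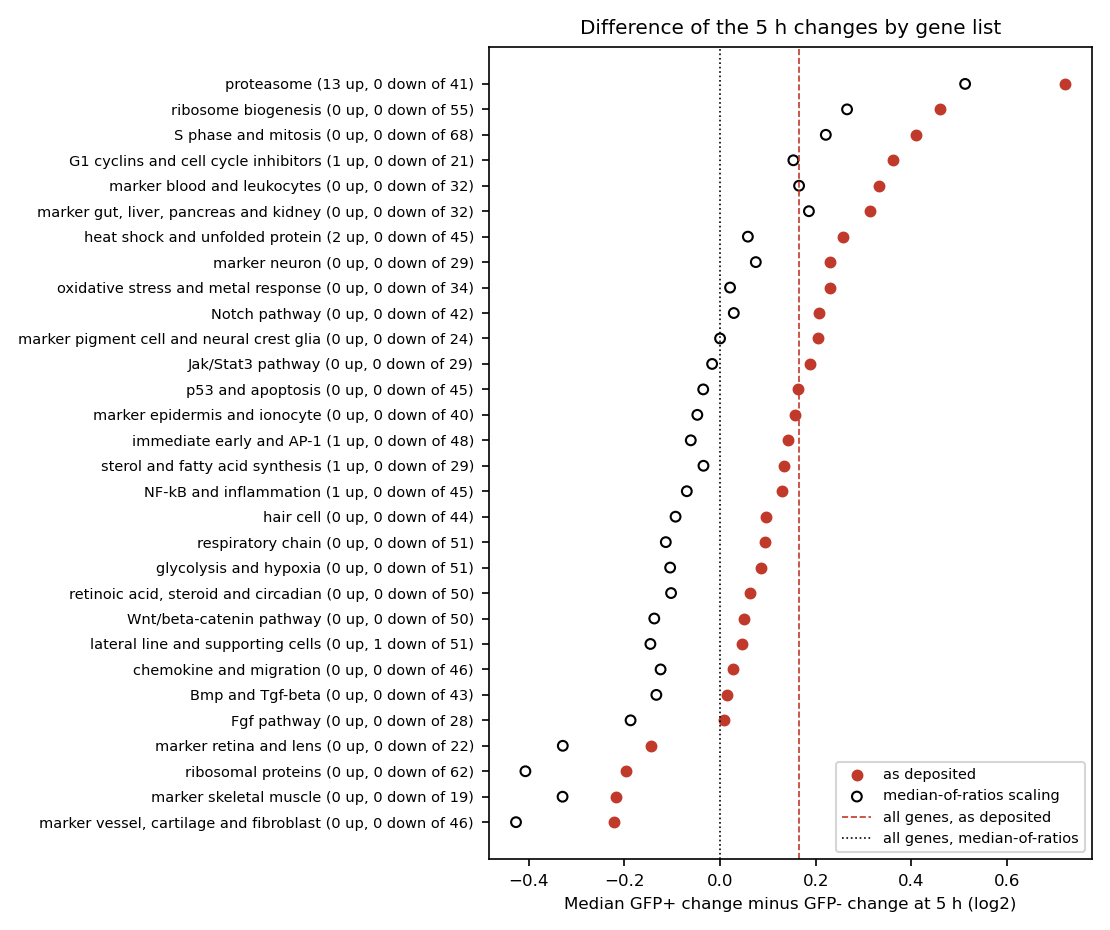
Median over each gene list of the GFP+ change minus the GFP- change at 5 h (log2), as deposited (red) and after median-of-ratios scaling (open circles), with the medians of all genes as lines; labels give the members called higher and lower of those tested. The proteasome list stands farthest to the right under both scalings, at 0.72 and 0.51, followed by ribosome biogenesis and by S phase and mitosis; the 3 added lists are not drawn.

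The difference at 5 h was then set against that at 3 h and at 1 h in a fit of all 24 libraries, where the mock libraries cancel. Against 3 h, with which 5 h shares a date, 4 genes were called (0.0191%; 1161 at an unadjusted p under 0.05), namely SDK1, RAP1GAP, B4GALNT4 and SRCIN1. Against 1 h, 3924 were called (18.7%), 3058 higher (14.6%) and 866 lower (4.14%), and there the dates differ. SDK1 (ENSDARG00000062854), a cell adhesion molecule of the immunoglobulin superfamily, had 2.11, 3.44 and 3.05 FPKM at 1 h, 1.13, 1.08 and 0.814 FPKM at 3 h and 6.06, 6.13 and 5.22 FPKM at 5 h in GFP+ cells treated with neomycin, against 2.18, 2.73 and 3.06 FPKM in GFP+ mock. In GFP- cells SDK1 stayed between 2.36 and 4.12 FPKM over all 12 libraries. Its level in GFP+ cells was thus lowest at 3 h and highest at 5 h, and the difference of changes at 5 h exceeded that at 3 h by 1.90 ± 0.18 (limma adjusted p = 7.71e-05).

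RAP1GAP (ENSDARG00000056554), which turns off the small GTPase Rap1, was low at both earlier times, with 3.23, 4.48 and 2.97 FPKM at 1 h, 3.97, 4.11 and 5.70 FPKM at 3 h and 16.3, 14.8 and 16.5 FPKM at 5 h in GFP+ cells treated with neomycin, against 8.198, 7.97 and 6.52 FPKM in GFP+ mock. GFP- cells held 5.65 to 8.06 FPKM of RAP1GAP in all 12 libraries. The difference of changes was -1.13 at 1 h, -0.65 at 3 h and 0.97 at 5 h, and 5 h stood above 3 h by 1.62 ± 0.20 (limma adjusted p = 0.00124). After scaling the RAP1GAP difference at 5 h was 0.78 and not called (limma adjusted p = 0.130). Only 1 of the 12 fits that left out a library called it. B4GALNT4, a glycosyltransferase, and SRCIN1, an inhibitor of Src kinase, were chosen after their values were seen. The difference of B4GALNT4 was -0.56 at 3 h and 0.68 at 5 h, and that of SRCIN1 -1.82 at 3 h and -0.33 at 5 h, and 5 h stood above 3 h by 1.24 ± 0.17 for B4GALNT4 (adjusted p = 0.00343) and by 1.49 ± 0.19 for SRCIN1 (adjusted p = 0.00199). SRCIN1 had 9.75, 11.2 and 11.1 FPKM in GFP+ cells at 5 h and 12.2, 14.8 and 12.3 FPKM in GFP+ mock. Neither was called in the difference at 5 h.

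Values over time are given here for 5 genes. FOSL1, an AP-1 subunit, had a difference of 3.63 at 1 h, 2.62 at 3 h and 1.16 at 5 h, the last not called (adjusted p = 0.337). LIN28A, an RNA-binding pluripotency factor, had 3.62 at 1 h, 1.54 at 3 h and 0.77 at 5 h, and was higher at 1 h than at 5 h by the test (5 h against 1 h -2.85 ± 0.43, limma adjusted p = 0.000209). ODC1, the first enzyme of polyamine synthesis, had 2.53 at 1 h, 2.31 at 3 h and 1.18 at 5 h, with GFP+ levels of 20.6, 30.4 and 49.0 FPKM at 5 h and 14.7, 8.03 and 9.39 FPKM in mock that spread widely between libraries. DLL1 ran the other way, with -0.21 at 1 h, 0.34 at 3 h and 1.42 at 5 h, and 5 h stood above 1 h by 1.63 ± 0.21 (adjusted p = 4.81e-05) and above 3 h by 1.08 ± 0.21 (adjusted p = 0.120). GDNF had 0.01 at 1 h, 1.11 at 3 h and 1.33 at 5 h, so most of its difference was present by 3 h.

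The list medians of the difference had their own courses. The proteasome stood at 0.18 at 1 h, 0.68 at 3 h and 0.72 at 5 h, and S phase and mitosis at -0.25, 0.36 and 0.41 at those times. Immediate early genes stood at 0.77 at 1 h, 0.29 at 3 h and 0.14 at 5 h, and ribosome biogenesis at 0.80, 0.67 and 0.46. All genes tested had medians of -0.07 at 1 h, 0.13 at 3 h and 0.16 at 5 h. These 3 differences share the mock libraries, so their values are given side by side and no likeness between them was tested.

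**Figure D5:**
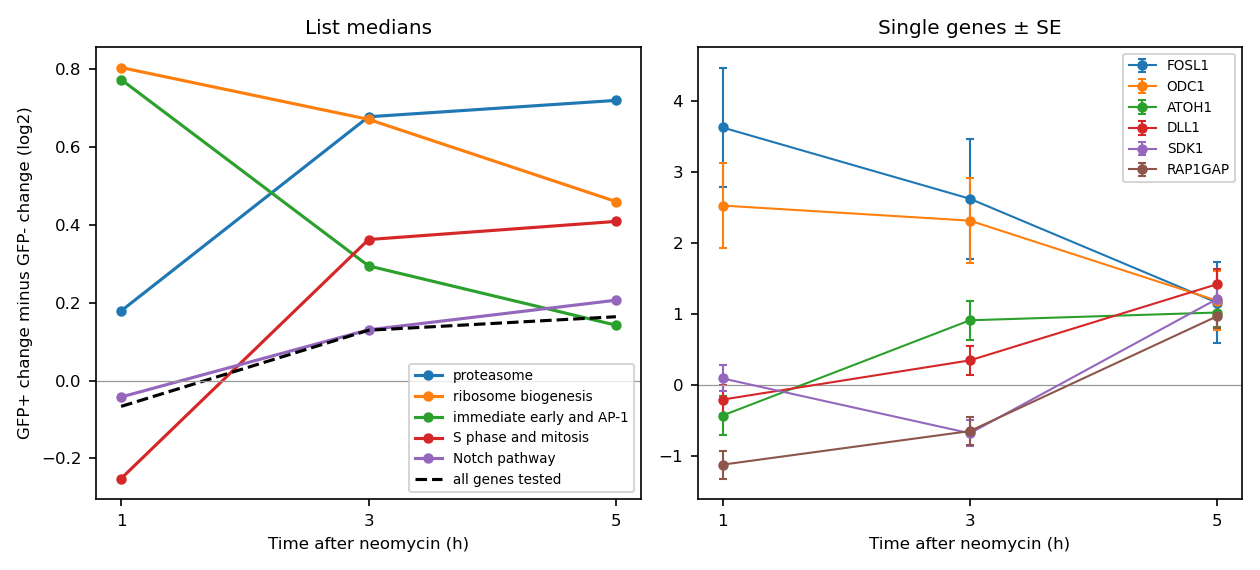
GFP+ change minus GFP- change against mock (log2) at 1, 3 and 5 h after neomycin, as medians of 5 gene lists and of all genes tested (left) and for 6 single genes with SE (right). Immediate early genes and FOSL1 are highest at 1 h, whereas the proteasome list reaches 0.68 at 3 h and 0.72 at 5 h and SDK1 and RAP1GAP lie above 0 at 5 h.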

How the data were processed

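RNA of FACS-sorted GFP+ and GFP- cells was sequenced from poly-A selected libraries. The authors deposited 1 table of FPKM per gene and library, made with CASAVA 1.8.2, TopHat 1.4.1 and Cufflinks 1.3 on danRer7, per the submitters' processing notes. Annotation release and strand handling were not given in the sources used here. Of 31199 rows, 112 repeats of an ID were dropped, and 20499 of 31087 IDs had a symbol in a separate table of gene names, since the deposited table gives Ensembl IDs alone. Symbols often follow mammalian names, and the ID with the highest mean stood for a shared symbol in lists. The symbol DLD matched the fixed name dld but is also that of dihydrolipoamide dehydrogenase, so it is not described. DLD was left in the Notch list and is counted there.

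Genes with at least 1 FPKM in 3 of the 12 libraries were kept. Values were taken as log2(FPKM + 1) and fitted with limma 3.58.1 (R 4.3.3), 4 group means with an intensity trend, Benjamini-Hochberg over 20937 genes and an adjusted p threshold of 0.05. A fit of all 24 libraries gave 5 h against 3 h and 1 h. Median-of-ratios scaling was the main alternative. The naming rule took the 10 largest called differences in each direction among genes with a symbol, a group mean of at least 5 FPKM, a GFP+ change called the same way and GFP+ groups that did not overlap, then the largest that rested on GFP- cells, the members of each list with the smallest p, a fixed set of genes, and genes also called at 5 h against 3 h. Members and lists were chosen with earlier results of these data known. List symbols matched for 1156 of 1435. On simulated data with 20937 genes, 42% of differences of log2 size 1 and 94% of size 2 were recovered, with 12 false calls. Replicate numbers were not treated as pairs. FPKM carry no read totals, so no counting error was given.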

Additional observations from a re-analysis of the deposited data

Results flagged for a closer look

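For 12 named genes the change at 5 h differed between GFP+ and GFP- cells by limma's test of the difference itself, both as deposited and after median-of-ratios scaling. The higher ones were GDNF at 1.33 and DPP3 at 1.28 (log2, GFP+ change minus GFP- change). The lower ones with a called fall in GFP+ cells were mgp at -1.63, neff2 at -1.63, fndc7rs2 at -1.42, pabpc1b at -1.40, GSTM3 at -1.36, gprin3b at -1.12, ifnlr1 at -1.06 and adcyap1b at -0.98. Of these, gprin3b, ifnlr1, neff2 and pabpc1b also had GFP- changes of 0.52, 0.40, 0.32 and 0.31, and mgp had one of -0.27. For GDNF the GFP- change was -0.37. None of these GFP- changes was called. GFP- cells held at most 0.377 FPKM of fndc7rs2, so its difference says little beyond its GFP+ change of -1.26. In hsc70 at -4.10 and PRMT9 at -1.69 a rise was called in GFP- cells under both scalings, and after scaling the fall of hsc70 in GFP+ cells was called too (-1.15, adjusted p = 0.0476). With the replicate number as a block 8 of these 12 were still called, and with a block for each presumed sort 1, pabpc1b. Leaving out 1 library left ifnlr1 called in 0 of 12 fits. None of these 12 was called at 5 h against 3 h. At 3 h the difference was already -4.48 for hsc70, -1.64 for mgp, -1.57 for neff2, -1.33 for pabpc1b and -1.38 for GSTM3. It was -1.52 for PRMT9, -1.33 for ifnlr1, -1.19 for fndc7rs2, -1.16 for gprin3b and -0.75 for adcyap1b. GDNF stood at 1.11 and DPP3 at 0.89. At 1 h, which shares the date of mock, PRMT9 was at -1.83, ifnlr1 at -1.37, gprin3b at -1.36 and neff2 at -1.01. There fndc7rs2 was at -0.96, hsc70 at -0.73, mgp at -0.66, adcyap1b at -0.60, GSTM3 at -0.47 and pabpc1b at -0.37. GDNF and DPP3 were at 0.01 and 0.06.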

How the results depend on the processing

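No called difference of a named gene changed sign under the alternatives tried. When a library was left out, 19 of 197 named genes changed sign, 0 of them called. Higher calls outnumbered lower ones as deposited and were outnumbered with median-of-ratios or quantile scaling. The totals of the GFP+ changes and of the mock differences moved by under 1.5 times with either scaling. The difference of changes, with 173 calls (149 higher, 24 lower) and 13 proteasome genes, gave 22 calls (8 higher, 14 lower, 0 proteasome) with median-of-ratios scaling and 13 (4 higher, 9 lower, 0 proteasome) with quantile scaling. With all 24 libraries in the fit it gave 618 (567 higher, 51 lower, 27 proteasome), and with these and median-of-ratios scaling 74 higher, 59 lower and 6 proteasome genes. It gave 72 (54 higher, 3 proteasome) without the intensity trend and 68 (47 higher, 0 proteasome) with a log2 difference of at least 1. Lower calls numbered 14 with a pseudocount of 0.1, 15 with a filter of 5 FPKM and 47 with the GFP- share subtracted. The GFP- changes, 109 genes as reported, numbered 55 with a pseudocount of 0.1, 62 with a filter of 5 FPKM, 231 with all 24 libraries, 237 with these scaled and 60 with a log2 change of at least 1. That last limit left 428 of the 3573 GFP+ changes and 7786 of the 14761 differences between GFP+ and GFP- cells in mock larvae. Leaving out 1 library gave 4 to 82 calls in the difference, 3 to 69 higher, 1 to 14 lower and 0 to 9 proteasome genes, 2307 to 3530 GFP+ changes, 35 to 110 GFP- changes and 13662 to 14845 mock differences. With the replicate number as a block the difference had 61 calls (52 higher, 9 lower, 0 proteasome) and the GFP- change 64. With a block for each presumed sort, the same-numbered GFP+ and GFP- samples of 1 treatment and time, the difference had 9 (5 higher, 4 lower, 0 proteasome). Same-numbered samples of 1 presumed sort correlated by 0.02 to 0.10 in their deviations from the group means. Such small correlations over all genes cannot exclude pairing. The labels do not give the numbers as pairs, and they were not taken as such. Yet 11 of 12 libraries correlated best with their own number in the other population, a hint of pairing from the data and not from the design. The setting with 24 scaled libraries was chosen after seeing the data. The causes were not tested. Read totals are unknown, so what depth limits could not be stated per gene.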

Other observations

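A few called genes not yet described were chosen after their values were seen, and of these lgals3bp.3 alone was also called after scaling. SSRP1, a histone chaperone, averaged 28.4 ± 2.61 FPKM in GFP+ cells at 5 h and 10.3 ± 0.475 FPKM in GFP+ mock (SD, n = 3 each), with a difference of 1.12 ± 0.17 (limma adjusted p = 0.0308). The chromatin remodellers SMARCA4 and smarca5 had differences of 0.88 and 1.13, the histone-binding protein RBBP4 0.91, the DNA damage sensor PARP1 0.91 and the lamin LMNB1 0.92. RCC1 and CSE1L, which serve nuclear transport, had 1.03 and 0.91. PRMT5, an arginine methyltransferase, averaged 13.3 ± 2.03 FPKM in GFP+ cells at 5 h and 5.01 ± 0.601 FPKM in GFP+ mock, with a difference of 1.01. CAD, which starts pyrimidine synthesis, had a difference of 0.95, and SRM, which makes spermidine, 0.71. nfe2l3, a leucine zipper transcription factor, averaged 19.4 ± 1.63 FPKM in GFP+ cells at 5 h and 8.39 ± 0.488 FPKM in GFP+ mock, against 16.97 ± 1.41 FPKM in GFP- cells at 5 h and 17.1 ± 2.54 FPKM in GFP- mock (difference 1.12 ± 0.17, limma adjusted p = 0.0308). The galectin-binding protein gene lgals3bp.3, called under both scalings, had 4.25, 4.92 and 4.88 FPKM in GFP+ cells at 5 h and 6.33, 7.03 and 8.49 FPKM in GFP+ mock, with a difference of -0.96 ± 0.17 (limma adjusted p = 0.0387). In GFP- cells it had 1.46, 1.43 and 1.17 FPKM at 5 h and 0.691, 0.871 and 0.698 FPKM in mock. Its changes were -0.54 in GFP+ cells and 0.42 in GFP- cells, the latter not called, so part of the difference rests on GFP- cells.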
